A study of Mus musculus with 6 samples.

Results

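Plasmacytoid dendritic cells are the rare blood and spleen cells that release large amounts of type I interferon when RNA or DNA reaches their endosomal sensors TLR7 and TLR9. They depend on the E protein Tcf4 (E2-2), on Irf8 and on the Ets factor Spi-B, grow in response to Flt3 ligand, and carry the lectin Siglec-H on their surface. Their TLR7 response is a classical arm of lupus in mice, and several of their genes are shared with B cells. The set described here holds 10 genes of these cells chosen by name: Siglech, Ccr9, Flt3 and Ly6d at the surface, the transcription factor genes Tcf4, Irf8 and Spib, the antisense transcript Runx2os1, and the effector and metabolic genes Klk1 and Cox6a2. Of these 10, 9 were found among the 44794 named loci, and Irf8 was not analysed here.

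Spleen RNA was sequenced from 3 samples of B6.Sle1b mice, a C57BL/6 line with the Sle1b lupus susceptibility interval, and from 3 samples of Sle1b.IFNγR-/- mice, which carry the same interval and lack the interferon-γ receptor. All 6 samples came from mice given imiquimod, a TLR7 agonist, 3 times a week for 4 weeks, so both groups were autoimmune-prone and TLR7-stimulated, and no untreated group was analysed. The comparison asks what loss of interferon-γ signalling changes in such spleens. The labels name neither the receptor chain that was disrupted nor the age of the mice, and do not say whether the samples of a group came from different mice, so the tests read only sample-to-sample spread.

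Values are fragment counts per gene locus, scaled between libraries by the authors. Each library held between 4394299 and 6349827 fragments over all loci, named or not. Only part of the scaled counts lay at named loci. Their share ran from 17.5% (replicate 2 of B6.Sle1b) to 20.0% (replicate 3 of B6.Sle1b), except that replicate 1 of B6.Sle1b reached 27.0%. A single fragment was worth between 0.822 and 1.20 scaled counts, and 3 fragments, the limit that a count of 0 allows, between 2.47 and 3.59. B6.Sle1b replicate 1 stood apart. The median level of 27 ribosomal protein genes there was 2.48 times the geometric mean of the 6 libraries, against 0.754 to 1.01 in the other 5. The 10 B cell markers summed to 2240 scaled counts there and to between 979 and 1244 elsewhere. The 9 plasmacytoid dendritic cell genes summed to 352 there, and in the other libraries to between 162 (B6.Sle1b replicate 2) and 291 (B6.Sle1b replicate 3).

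The promoter windows of the surface receptor genes Siglech, Ccr9 and Flt3 are shown because their genotype differences did not all have the same sign. The difference was positive for Siglech and negative for Ccr9 and Flt3, and none passed the threshold. Each is the 250 bases before the RefSeq start on GRCm38.p6, 5′ to 3′ on the gene's strand. The RefSeq start of Ccr9 lies inside its GENCODE span of 123678439 to 123784330, not at the first base of that span. Capitals mark matches, on either strand, to CAGGTG, an E-box of the kind bound by E proteins such as Tcf4.
Siglech, chr7:55767934-55768183, plus strand: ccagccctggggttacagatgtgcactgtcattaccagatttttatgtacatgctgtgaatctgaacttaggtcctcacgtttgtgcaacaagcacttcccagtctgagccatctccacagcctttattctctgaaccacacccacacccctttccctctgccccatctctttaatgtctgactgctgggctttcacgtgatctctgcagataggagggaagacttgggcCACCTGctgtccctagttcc
Ccr9, chr9:123766961-123767210, plus strand: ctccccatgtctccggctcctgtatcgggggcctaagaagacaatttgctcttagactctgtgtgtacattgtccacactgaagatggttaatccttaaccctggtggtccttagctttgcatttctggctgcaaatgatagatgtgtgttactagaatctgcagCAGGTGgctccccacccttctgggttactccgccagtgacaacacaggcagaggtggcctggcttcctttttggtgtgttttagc
Flt3, chr5:147400490-147400739, minus strand: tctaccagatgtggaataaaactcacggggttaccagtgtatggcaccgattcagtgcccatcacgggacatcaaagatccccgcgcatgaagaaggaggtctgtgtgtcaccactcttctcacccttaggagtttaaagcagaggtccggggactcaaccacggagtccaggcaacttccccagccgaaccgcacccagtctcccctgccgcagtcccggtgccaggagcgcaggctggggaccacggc

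Siglech had 1 match to CAGGTG, in its reverse form CACCTG 20 bases before the start. Ccr9 had 1 match 85 bases before the start, and so did Klk1, 87 bases before its own. The windows of Flt3 and Spib had no match to CAGGTG. Other forms of the E-box were not searched, so these windows cannot be said to lack E-boxes. Of 32851 windows of the same length, 17.2% held CAGGTG. Matches to the PU.1 and Spi-B core GAGGAA, present in 23.3% of windows, and to the interferon-stimulated response element, present in 2.98%, were found in 0 of these 5 members' windows. A match describes the letters in this window and says nothing of whether a factor binds there.

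Siglech encodes Siglec-H, an endocytic lectin receptor that signals through the adaptor Tyrobp and is the most widely used surface marker of these cells in the mouse (chromosome 7, 55768178 to 55778925, GRCm38, plus strand). In B6.Sle1b replicates 1 to 3 its scaled counts were 27.5, 23.8 and 14.1, against 24.5, 38.2 and 38.3 in replicates 1 to 3 of Sle1b.IFNγR-/-. Replicates 2 and 3 of Sle1b.IFNγR-/- were above every B6.Sle1b library, while replicate 1 lay inside their range, so the groups overlapped. The means were 21.8 ± 6.95 and 33.7 ± 7.96 (SD, n = 3 each). The log2 difference was 0.63 (SE 0.39, 95% interval -0.22 to 1.48) when limma compared log2(value + 1), and the Benjamini-Hochberg adjusted p was 0.99976. Siglech was the only tested member with a positive difference. B6.Sle1b replicate 3, with 15 fragments, was the lowest library, and without it the difference was 0.35. In the library richest in ribosomal protein and B cell transcripts, B6.Sle1b replicate 1, Siglech was within the range of the others.

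Flt3, the receptor tyrosine kinase for Flt3 ligand, which dendritic cell development requires and which progenitors and conventional dendritic cells also carry, showed the opposite order (chromosome 5, 147330741 to 147400489). B6.Sle1b libraries had scaled counts of 36.7, 26.3 and 36.6, against 15.7, 15.7 and 22.8 in Sle1b.IFNγR-/-. All 3 libraries without the receptor lay below all 3 with it. The means were 33.2 ± 5.96 and 18.1 ± 4.05 (SD, n = 3 each), from 107 and 51 fragments in all. The log2 difference was -0.85 (SE 0.37, 95% interval -1.66 to -0.036), with an unadjusted limma p of 0.0419 and an adjusted p of 0.99976, so Flt3 did not pass. The difference lay between -1.01 and -0.76 when single libraries were left out. Its unadjusted limma p was 0.0598 with median-ratio scaling and 0.580 with scaling to ribosomal protein genes. It was 0.0563 without the minimum mean of 10 and 0.0573 with the replicate number as a block. With 0.5 or 10 added to each value in place of 1, it was 0.0418 and 0.0442.

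Ccr9, the receptor for the chemokine CCL25 on plasmacytoid dendritic cells and gut-homing T cells, also had lower values without the interferon-γ receptor (chromosome 9, 123678439 to 123784330). Values of 36.7, 32.1 and 63.7 scaled counts in B6.Sle1b stood against 25.4, 30.3 and 27.6 in Sle1b.IFNγR-/-. The groups did not overlap, but B6.Sle1b replicate 2 and Sle1b.IFNγR-/- replicate 2 were close together. The means were 44.2 ± 17.1 and 27.8 ± 2.50 (SD, n = 3 each), and the log2 difference was -0.59 (SE 0.36, limma adjusted p = 0.99976). Without B6.Sle1b replicate 3, the highest library, it was -0.30. The deposited locus merges Ccr9 with the overlapping long noncoding RNA gene Gm17200, and the values cannot be divided between them.

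Ly6d, a small membrane-anchored protein of B cells and of lymphoid precursors of plasmacytoid dendritic cells, was close to the limit of detection (chromosome 15, 74762056 to 74763620). It had 3 fragments in each B6.Sle1b library and 7, 0 and 3 in Sle1b.IFNγR-/-. In scaled counts these were 3.06, 2.47 and 2.81 against 6.12, 0 and 3.59. No difference was detectable at this depth, and Ly6d did not reach the mean of 10 needed for the test.

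**Figure D1:**
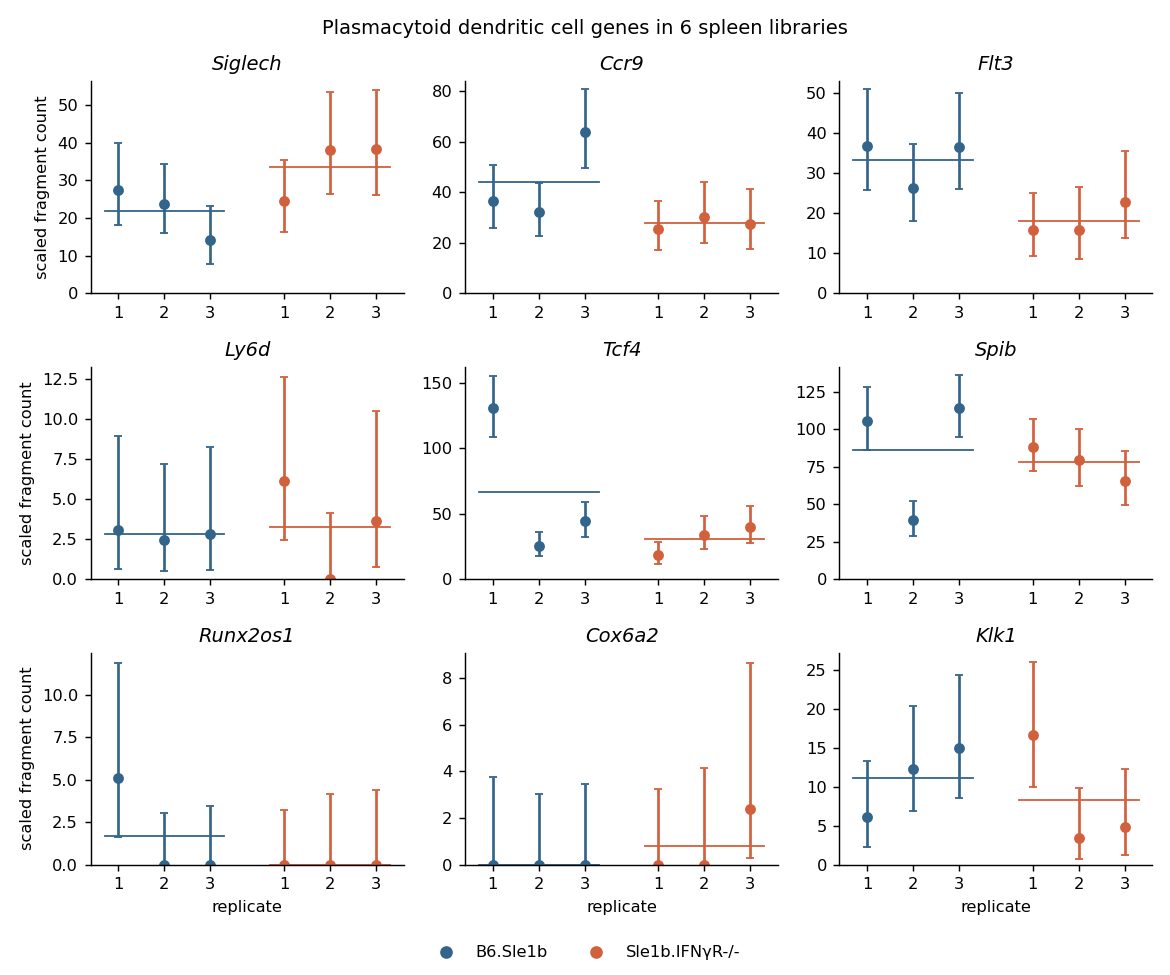
Scaled fragment counts (y axis, each panel from 0) of the 9 members found, by replicate (x axis), with B6.Sle1b in blue and Sle1b.IFNγR-/- in orange. Points are single libraries, bars exact 95% Poisson intervals that cover counting error only, and lines group means. The 2 groups are separate for Flt3 and Ccr9 and overlap for the other 7 genes.

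Tcf4 encodes E2-2, the E protein that establishes and maintains the plasmacytoid dendritic cell fate and that B cells also use (chromosome 18, 69343356 to 69689079). B6.Sle1b libraries had 130, 25.5 and 44.1 scaled counts, against 18.4, 33.7 and 39.5 in Sle1b.IFNγR-/-. B6.Sle1b replicate 1 stood far above the rest, and the other 5 libraries overlapped. The means were 66.7 ± 56.0 and 30.5 ± 10.9 (SD, n = 3 each). The log2 difference was -0.84 (SE 0.52, limma adjusted p = 0.99976). The difference was -0.20 without B6.Sle1b replicate 1, -1.35 without B6.Sle1b replicate 2 and -0.52 without Sle1b.IFNγR-/- replicate 1. It was -0.18 in a fit with each library's ribosomal protein level as covariate. Tcf4 was thus highest in the library where B cell markers and ribosomal protein genes were highest, and their part in its difference was not tested.

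Spib encodes Spi-B, an Ets factor that supports plasmacytoid dendritic cell function and B cell receptor signalling (chromosome 7, 44525993 to 44532071). It had the most fragments of the 9 genes, 501 over the 6 libraries. They gave 106, 39.5 and 114 scaled counts in B6.Sle1b, against 88.3, 79.8 and 65.9 in Sle1b.IFNγR-/-. The 3 libraries without the receptor lay inside the B6.Sle1b range, which was set by a low replicate 2. The means were 86.6 ± 41.0 and 78.0 ± 11.3 (SD, n = 3 each), and the log2 difference was -0.016 (SE 0.39, 95% interval -0.85 to 0.82, limma adjusted p = 0.99976). The interval holds changes in either direction, and the sign turned under median-ratio scaling (0.063), scaling to ribosomal protein genes (0.51) and the ribosomal covariate (0.31).

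Runx2os1 is transcribed on the strand opposite Runx2, whose protein is needed for plasmacytoid dendritic cells to leave the bone marrow (chromosome 17, 44735845 to 44737612, inside Runx2). It had 5 fragments in B6.Sle1b replicate 1, a scaled count of 5.09, and 0 in the other 5 libraries. Runx2 itself had 68.3, 47.7 and 54.4 scaled counts in B6.Sle1b, against 43.7, 38.2 and 77.9 in Sle1b.IFNγR-/-, with overlap and a log2 difference of -0.14 (SE 0.35). Whether the counting used strand is not given in the sources used here, so fragments of the 2 genes cannot be told apart with certainty.

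Klk1, a tissue kallikrein protease that the pancreas also makes, gave 6.11, 12.3 and 15.0 scaled counts in B6.Sle1b, against 16.6, 3.37 and 4.79 in Sle1b.IFNγR-/- (chromosome 7, 44225360 to 44229618). The highest and the lowest library were both Sle1b.IFNγR-/-. Its mean of 9.70 was just under the 10 needed for the test. Among 10 exocrine pancreas markers the carboxypeptidase gene Cpa1 was at 0 in 4 of the 6 libraries, while Cela2a (at a locus shared with Ctrc), Pnlip, Cel and Pnliprp1 were above 0 in all 6. The list summed to between 105 and 168 scaled counts in B6.Sle1b and between 83.9 and 147 in Sle1b.IFNγR-/-. Pnliprp1, a lipase-related gene, was its highest gene in every library, with 44.6 to 105 scaled counts. The part of pancreatic RNA in the Klk1 values was not tested.

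Cox6a2, a cytochrome c oxidase subunit of muscle that plasmacytoid dendritic cells also express, had 2 fragments in Sle1b.IFNγR-/- replicate 3 and 0 in the other 5 libraries (chromosome 7, 128205435 to 128206387). A count of 0 allows up to 3 fragments, so the 5 libraries at 0 cannot be said to lack it. Muscle markers summed to between 46.9 and 61.9 scaled counts in B6.Sle1b and between 67.3 and 102 in Sle1b.IFNγR-/-, highest in the library with the Cox6a2 fragments. Not all of them followed the sum. Myh4, too low for the test, had 6.11, 6.58 and 6.56 scaled counts against 2.62, 0 and 4.79. Actc1, also too low, had 5.09, 4.11 and 1.87 against 6.12, 13.5 and 7.19. Mylpf, Tnnt3, Tnnc2 and Cox7a1 were at 0 in the library with the Cox6a2 fragments. The 3 tested, Ckm, Tnni2 and Actn3, had positive differences (median 0.72), of which 0 passed. Actn3, a muscle alpha-actinin gene, had 12.2, 9.04 and 10.3 scaled counts against 24.5, 28.1 and 35.9, without overlap (1.40, SE 0.42, limma adjusted p = 0.99976). It was the only 1 of the 3 with an unadjusted p under 0.05. Of all tested loci, 3.51% were higher without overlap, and 1.02% were higher with an unadjusted limma p under 0.05. Without B6.Sle1b replicate 1 the difference of Ckm was -0.0070 and Actn3 kept its direction. The part of muscle RNA in the Cox6a2 value was not tested.

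No member passed the test across the genome. Of the 10 members, 5 reached a mean of 10 and were tested among 19227 named loci, and 0 passed a limma adjusted p of 0.05, as did 0.0% of all loci. At an unadjusted limma p under 0.05 there was 1 member, Flt3, among the loci with lower values, where 2.08% of all tested loci lay, and 0 among those with higher values (1.02%). Flt3 and Ccr9 were without overlap and lower in Sle1b.IFNγR-/-, 2 of 5 tested members against 5.19% of all loci. No member was without overlap and higher (3.51% of loci). With so few members these shares are a description. Of the 5, 4 had negative log2 differences, as did 58.1% of all loci. Their median was -0.59, beside -0.083 for all loci. Without B6.Sle1b replicate 1 the member median was -0.20 and that of all loci 0.019, and 3 of 5 members were negative. Without B6.Sle1b replicate 2 these medians were -0.78 and -0.17, and 4 of 5 members were negative. In bulk spleen, fewer cells of a type and less RNA per cell cannot be told apart.

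Ratios between members within a library depend little on the scaling between libraries. Siglech relative to Flt3, as a ratio of (value + 1), was 0.757, 0.910 and 0.401 in B6.Sle1b, against 1.52, 2.34 and 1.66 in Sle1b.IFNγR-/-. Every library without the receptor was higher, and the geometric means, 0.651 and 1.81, differed 2.78-fold. Siglech relative to Ccr9 was 0.757, 0.751 and 0.233 against 0.967, 1.25 and 1.38, a 2.33-fold difference without overlap. Relative to Tcf4 it was 0.217, 0.938 and 0.334 against 1.32, 1.13 and 0.970, without overlap but with B6.Sle1b replicate 2 close to Sle1b.IFNγR-/- replicate 3. Relative to Spib it overlapped (0.267, 0.614 and 0.131 against 0.285, 0.485 and 0.588).

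Of the 10 ratios among the 5 tested members, these 3 did not overlap, and all 3 share the Siglech values. Each had a two-sided exact permutation p of 0.1, the smallest that 3 against 3 libraries allow, or 0.333 adjusted over the 10 ratios, so none could pass. The same separation, with Siglech relatively higher in Sle1b.IFNγR-/-, held for 22.8% of the 19226 other tested loci, and the opposite one for 0.12%. The ratios of Ccr9 to Flt3 (geometric means 1.28 and 1.52) and of Tcf4 to Flt3 (1.60 in both groups) overlapped.

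**Figure D2:**
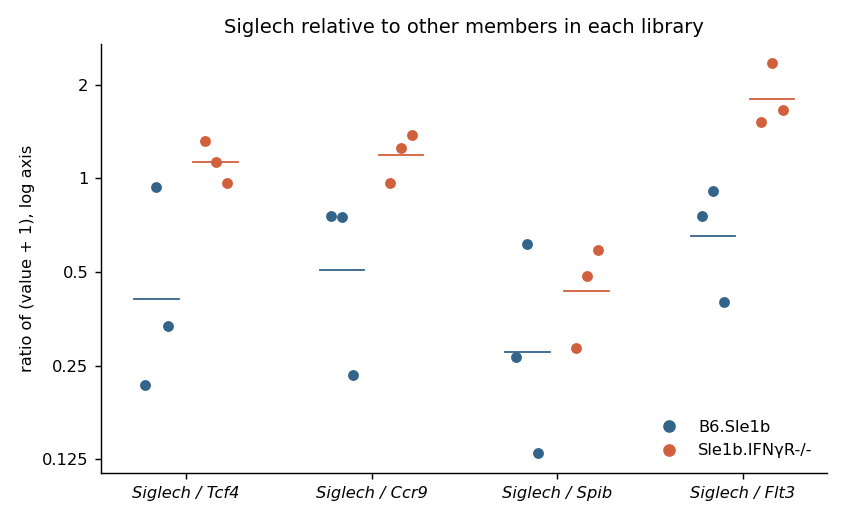
Ratio of Siglech to 4 other members in each library (y axis, log scale, of value + 1), with B6.Sle1b in blue and Sle1b.IFNγR-/- in orange, points for libraries and lines for geometric means of 3. The groups are separate for Tcf4, Ccr9 and Flt3, with geometric means of 0.651 and 1.81 for Flt3, and overlap for Spib.

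Over the 6 libraries, log2 values of Flt3 and Ccr9 had a Pearson r of 0.75 and those of Flt3 and Tcf4 one of 0.71. Siglech had an r of -0.79 with Ccr9, -0.57 with Flt3, -0.31 with Spib and 0.020 with Tcf4. The genes most like Siglech were Fbxo21, Mtx3, Ncf4, Pgap1 and Rfx8, with r between 0.94 and 0.96. They are the highest of 3624 loci whose mean reached 50, a floor above Siglech's own mean of 27.7. Members, predicted genes, clones, pseudogenes, small RNAs and loci with several names had been left out. These correlations over 6 libraries share the library scale and the 2 genotypes and are given as a description.

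Levels were compared between genes per kb of annotated exon, as means of the 6 libraries. The length joined the exons of all annotated transcripts, 27382 bases for Tcf4, 10260 for Ccr9 and 744 for Ly6d. It can exceed that of any 1 transcript, so the order depends on the annotation. The Ccr9 value also holds Gm17200, whose exons were not added to the length. Spib was highest at 28.7 scaled counts per kb, followed by Klk1 at 9.01, Siglech at 8.20, Flt3 at 4.15, Ly6d at 4.04, Ccr9 at 3.50, Tcf4 at 1.77, Runx2os1 at 1.07 and Cox6a2 at 0.587. Each gene's range over libraries overlapped that of its neighbour in this order. For Spib and Klk1 the overlap was small, from 13.8 to 39.9 against 3.13 to 15.4. The locus values also count transcripts that the authors' assembly added, 8 of 16 at Siglech, 4 of 10 at Ccr9, 3 of 5 at Spib, 1 of 2 at Klk1 and 1 of 16 at Tcf4, so a level per annotated length is approximate.

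Set beside markers of other cells, only Spib lay above the median of B cell genes. The 10 B cell markers had a median of 22.3 scaled counts per kb. The conventional dendritic cell markers had a median of 8.24, with their transcription factor gene Zbtb46 at 7.84, and the 9 members one of 4.04. Genes of tissues foreign to spleen were partly as high as the members. The muscle creatine kinase gene Ckm lay at 7.20 and the muscle genes Tnni2 and Actn3 at 11.9 and 6.90 per kb, although the muscle list's median was 0.739 and 1 of its 9 genes, Cox7a1, was at 0 in all 6 libraries. Exocrine pancreas genes had a median of 2.05 and a range of 0.474 to 33.0, with Cpa1 at 0.776. The labelled spleen showed its T cell markers at a median of 10.2 per kb (2.55 to 24.6) and its monocyte markers at 6.44 (1.40 to 149), with the colony-stimulating factor receptor gene Csf1r at 19.1. Among other plasmacytoid dendritic cell markers the tetherin gene Bst2, which is induced by type I interferon, was at 0 in 4 of 6 libraries.

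**Figure D3:**
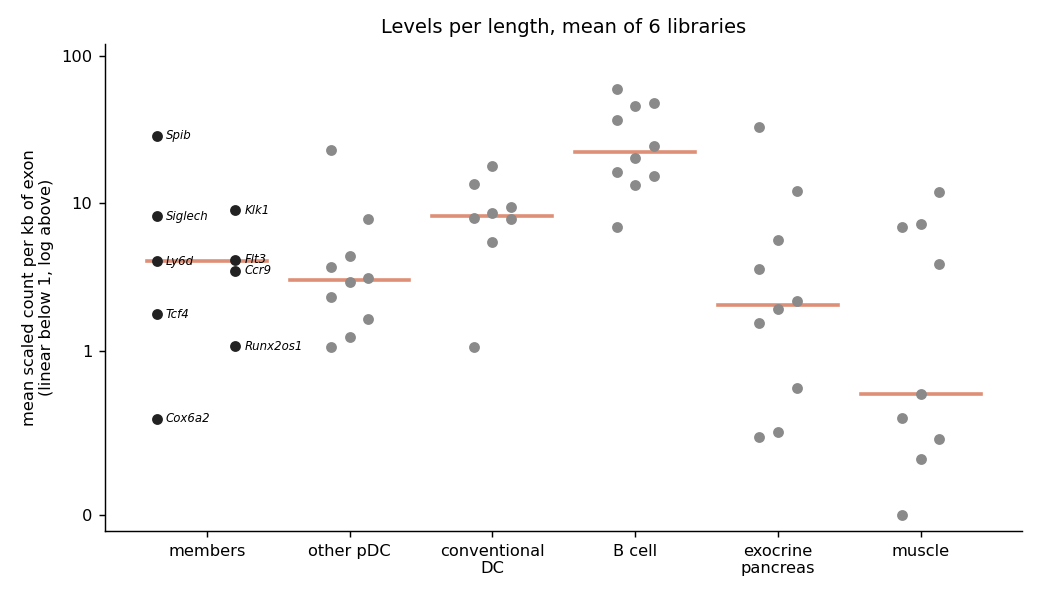
Mean scaled count of 6 libraries per kb of annotated exon (y axis, linear below 1 and logarithmic above) for the members, other plasmacytoid dendritic cell (pDC) genes and markers of other cells and tissues. Points are genes and orange lines medians, 4.04 for the members, 22.3 for B cells and 0.739 for muscle; Spib, at 28.7, is the only member above the B cell median.

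Other genes of plasmacytoid dendritic cells were read from a list of 10, of which 3 were tested. All 3 had negative differences, 0 passed, and their median was -0.46, or -0.18 with 2 negative without B6.Sle1b replicate 1. Without B6.Sle1b replicate 2 it was -0.52, with all 3 negative. Among them were Upb1, a pyrimidine-breakdown enzyme gene (-0.58, SE 0.39), and the inhibitory receptor gene Lair1 (-0.46, SE 0.37). Bst2 had 4.08, 0 and 0 scaled counts in B6.Sle1b, against 0, 0 and 4.79 in Sle1b.IFNγR-/-.

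Transcription regulators that act with or against Tcf4 and Irf8 numbered 11, of which 8 were tested. All 8 differences were negative, 0 passed, and the median was -0.23. Bcl11a and Zeb2, which promote the plasmacytoid fate, had differences of -0.19 (SE 0.36) and -0.14 (SE 0.35). The smallest p values belonged to Irf4, which plasma cells also express (-0.94, SE 0.50), the E protein inhibitor gene Id3 (-0.94, SE 0.97), Ikzf1 (-0.53, SE 0.56) and the E protein gene Tcf12 (-0.27, SE 0.37). Id2, the E protein inhibitor that favours conventional dendritic cells, had 11.2, 14.0 and 15.9 scaled counts against 0, 5.62 and 10.8. Its groups did not overlap, as at 5.19% of tested loci in this direction, but its mean was under that needed for the test. Without B6.Sle1b replicate 1 the median of the 8 was 0.090 and 3 were negative. Without B6.Sle1b replicate 2 it was -0.56 and all 8 were negative.

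The genes of endosomal nucleic acid sensing had a median of -0.66, with 7 of 9 tested members negative and 0 past the threshold. Tlr7, the sensor that imiquimod engages, had 104, 32.9 and 49.7 scaled counts in B6.Sle1b, against 49.8, 23.6 and 34.7 in Sle1b.IFNγR-/-, with overlap (log2 difference -0.67, SE 0.44). Tlr9, the DNA sensor, had 44.8, 28.8 and 38.4 against 16.6, 25.8 and 27.6, without overlap (-0.66, SE 0.37, limma adjusted p = 0.99976). Such a separation toward lower values held for 5.19% of all tested loci. Irf7, the factor that turns on type I interferon genes, had 42.8, 7.40 and 22.5 against 5.25, 13.5 and 4.79, with overlap (-1.35, SE 0.69). The Toll-like receptor chaperone genes Cnpy3 (-1.03, SE 0.46) and Unc93b1 (-0.66, SE 0.42) also overlapped. Slc15a4 and Irak4 had positive differences of 0.42 (SE 0.37) and 0.28 (SE 0.36). Without B6.Sle1b replicate 1 the median of the 9 was -0.22 and 5 were negative. Without B6.Sle1b replicate 2 it was -0.84 and 7 were negative.

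The partners of the members gave no change past the threshold either. Tyrobp, the adaptor of Siglec-H, had 87.6, 22.2 and 19.7 scaled counts in B6.Sle1b, against 28.9, 30.3 and 28.7 in Sle1b.IFNγR-/- (log2 difference -0.20, SE 0.50). Ccl25, the ligand of Ccr9, had 17.3, 28.8 and 22.5 against 28.9, 15.7 and 19.2 (-0.12, SE 0.41). The locus that holds Flt3l also holds Rpl13a and several small nucleolar RNA genes, so its value (-0.51, SE 0.46) is not one of Flt3 ligand alone. Without B6.Sle1b replicate 1, the highest library for Tyrobp and for this locus, the differences were 0.47 for Tyrobp, 0.073 for the locus and -0.29 for Ccl25. Without B6.Sle1b replicate 2 the median of these 3 differences was -0.50, with 2 negative.

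**Figure D4:**
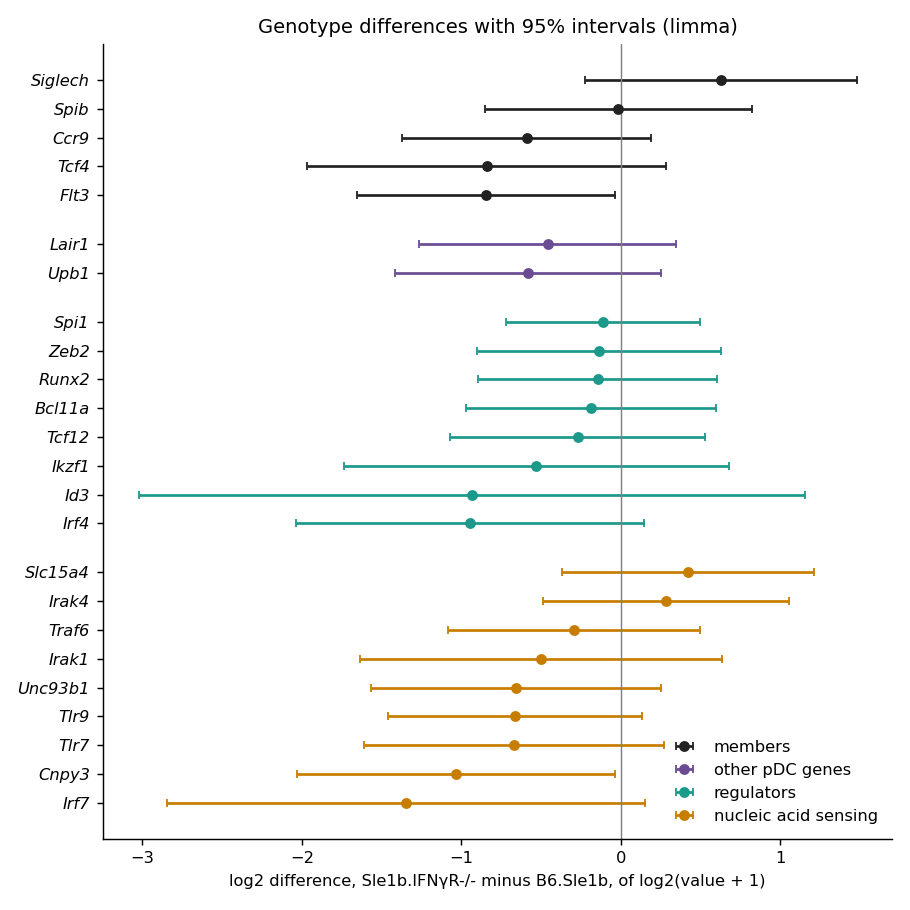
Log2 differences between the genotypes (x axis, Sle1b.IFNγR-/- minus B6.Sle1b, on the log2(value + 1) scale) with limma 95% intervals for the tested members and genes of 3 related lists (pDC, plasmacytoid dendritic cell). Siglech lies at 0.63 and Flt3 at -0.85; among the genes drawn, only the intervals of Flt3 and Cnpy3 leave out 0, and no gene passed after adjustment.

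Markers of the other cells that share these genes were read beside them. B cell markers, which bear on Tcf4, Spib and Ly6d, had a median difference of -0.18, with 8 of 10 negative, or 0.18 with 2 negative without B6.Sle1b replicate 1. Conventional dendritic cell markers, which bear on Flt3, had a median of -0.10 with 4 of 6 negative, or 0.013 with 2 negative without that library. They summed to between 215 and 343 scaled counts in B6.Sle1b and between 233 and 251 in Sle1b.IFNγR-/-, and Zbtb46 had a difference of -0.14 (SE 0.30). Itgax, the CD11c gene of the same list, had 97.8, 60.0 and 77.8 scaled counts against 49.8, 58.4 and 44.3. It was lower without overlap as Flt3 was (-0.60, SE 0.31, limma adjusted p = 0.99976), and so were 5.19% of all tested loci. T cell markers, which bear on Ccr9, had a median of -0.30 with 5 of 6 negative, or -0.13 with 4 negative without B6.Sle1b replicate 1, and summed to between 301 and 557 against 292 and 341. Monocyte markers had a median of -0.30 with 6 of 7 negative, or 0.13 with 3 negative without it. Without B6.Sle1b replicate 2 the medians of these 4 lists lay between -0.63 and -0.38.

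Plasma cell markers, which bear on Irf4, had the most negative median of the marker lists, -1.32. All 4 tested were negative and 0 passed. They were Igj, the antibody joining chain gene (-1.38, SE 0.54), the secretory cell factor genes Xbp1 (-1.26, SE 0.64) and Prdm1 (-0.70, SE 0.31), and Derl3, a gene of protein quality control (-1.61, SE 0.56). Igj, Prdm1 and Derl3 were without overlap and had unadjusted limma p values of 0.0252, 0.0436 and 0.0130, and an adjusted p of 0.99976 each. The groups barely separated at Igj, with 53.4 scaled counts in B6.Sle1b replicate 2 and 52.8 in Sle1b.IFNγR-/- replicate 2. Among all tested loci, 5.19% were lower without overlap, and 2.08% were lower with an unadjusted limma p under 0.05. The list of 7 summed to 768, 156 and 246 scaled counts in B6.Sle1b, against 115, 143 and 131 in Sle1b.IFNγR-/-, so every B6.Sle1b library was higher and replicate 1 by far the highest. Tnfrsf17 was at 0 in all 6 libraries. Without B6.Sle1b replicate 1 the difference of Irf4 was -0.21. The list's median was then -0.55 with all 4 negative, and none of the 4 kept an unadjusted p under 0.05. Without B6.Sle1b replicate 2 the list's median was -1.84, with all 4 negative. The part of these cells in the values of the shared genes was not tested.

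By position, 4 of the 10 members lie on chromosome 7, where Klk1 and Spib are 296 kb apart. None lies on chromosome 10 or 16, which carry the interferon-γ receptor genes Ifngr1 and Ifngr2.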

How the data were processed

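Per the labels' protocols, spleen RNA was extracted with TRIzol and made into libraries with a NuGEN Ovation RNA-seq kit, and the tools named, per the submitters' processing notes, are Cufflinks 2.2.1, TopHat2 2.0.9 and CASAVA, on GRCm38. Neither strand setting nor annotation release is given. The deposited signal is a scaled fragment count per locus, set between libraries by quartile by the authors, per the file's name. Its 1530481 rows were collapsed to 426574 loci, of which 44794 had a gene name. In each library 99.8% of positive values were whole multiples (within 0.01) of the value of 1 fragment. The rest were not, so planned count tests were not used. Another 24 columns of per-sample values were not used.

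The 19227 named loci whose mean reached 10 entered one limma fit of log2(value + 1), using limma 3.58.1 under R 4.3.3, an intensity trend, genotype as sole term and Benjamini-Hochberg adjustment at 0.05; the fold of low genes is understated on this scale. Ratios between members were compared with exact permutation tests in scipy 1.17.1 (python 3.11.15, pandas 2.3.3, numpy 2.4.6, matplotlib 3.10.9). Positions and exon lengths came from GENCODE mouse release 21 (GRCm38), and promoter windows from RefSeq on GRCm38.p6, matched by symbol for 6 members. Poisson intervals and the limit of 3 fragments cover counting error only. The highest locus was taken per name, and 132 of 136 list entries matched.

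The members and lists were chosen with earlier results of these data known. Named by value were all members, the 4 genes of smallest p in each related list, certain regulators, sensors and partners, and defining markers of other cells, except for a few that are not reported here; the 5 genes most like Siglech, skipping predicted genes, clones and small RNAs, were named by correlation. Slc15a4, Irak4, Itgax, the muscle genes other than Ckm, and the plasma cell and exocrine pancreas genes other than Cpa1 were named after their values were seen.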

Additional observations from a re-analysis of the deposited data

How the results depend on the processing

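Under all 14 alternatives 0 members passed limma's threshold, and their lowest adjusted p over all settings was 0.368. The count of all loci past the threshold was 0 as deposited, 2 with scaling to ribosomal protein genes, 13 with the ribosomal covariate and between 0 and 5 when single libraries were left out (5 each without B6.Sle1b replicate 1 or replicate 2). Siglech stayed positive, and Flt3, Ccr9 and Tcf4 negative, in every alternative in which they were tested. Scaling to ribosomal protein genes moved the median of all loci from -0.083 to 0.42, and with it Siglech to 1.13, Flt3 to -0.34, Ccr9 to -0.082 and Tcf4 to -0.32. Spib changed sign with median-ratio scaling (0.063), ribosomal scaling (0.51) and the ribosomal covariate (0.31), and lay between -0.50 and 0.25 when single libraries were left out. The median of the tested members went from -0.59 to -0.082 with ribosomal scaling, to -0.18 with the ribosomal covariate and to -0.016 with a minimum mean of 50, where Spib alone was tested. It lay between -0.78 and -0.20 when single libraries were left out. The cause of these shifts was not tested.

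With the replicate number as a block (a paired fit), 0 loci and 0 members passed. Deviations of same-numbered libraries had correlations of 0.012, -0.027 and -0.011, beside -0.034 to 0.045 for libraries of different number. These values show no pairing by number, but with 3 libraries per group they cannot exclude it. Planned tests on counts were not run because the counts could not be recovered in full. With 51 to 107 fragments per group at Flt3, and fewer than 20 over all libraries at Ly6d, Runx2os1 and Cox6a2, depth limits what can be seen.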
